A study of Mus musculus with 6 samples.

Results

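Voltage-gated sodium channels carry the inward current that starts and propagates the action potential. Each channel has a pore-forming alpha subunit and auxiliary beta subunits, which anchor the channel and tune its gating. The 7 subunit genes described here are the alpha genes Scn1a, Scn2a, Scn3a and Scn8a, which encode Nav1.1, Nav1.2, Nav1.3 and Nav1.6, and the beta genes Scn2b, Scn3b and Scn4b. They were taken by symbol from the 32285 genes of the matrix, in which each symbol matched 1 row, and they are members of a family of 14 subunit genes that the matrix lists. As background, Nav1.1 is the channel on which many fast-spiking interneurons depend, Nav1.2 and Nav1.6 sit at axon initial segments and Nav1.6 at nodes of Ranvier, and Nav1.3 is most abundant in the developing brain. Oligodendrocyte progenitors (OPCs) are glia that are known to carry voltage-gated sodium currents, which are lost as they mature into myelinating oligodendrocytes.

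Single-nucleus RNA-seq had been performed on frozen forebrain from 3 WT and 3 Npc1-/- mice at postnatal day 16, untreated littermates on a hybrid background of BALB/cJ and C57BL6/J, in which the Npc1nih allele removes the lysosomal cholesterol transporter NPC1 from every cell. The study set out to find the cell types that are affected early when NPC1 is missing. The counts of 6 libraries came joined in 1 matrix, with the library given by the suffix of each barcode and no key from suffix to mouse in the sources used here, so WT and Npc1-/- nuclei were described together and the effect of genotype on these genes is not analysed here. Libraries are given singly or by their lowest, median and highest value, and no p-value is given.

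The 75867 nuclei kept held 497727021 unique molecular identifiers (UMIs, 1 per captured transcript molecule), with 8215 to 16109 nuclei per library and a median of 4471 to 5439 UMIs per nucleus. Of the 75234 barcode sequences, 631 were found in more than 1 library, and leaving out those 1264 nuclei changed no count of members past 2-fold. Nuclei were clustered without any sodium channel gene and named from marker lists. This gave 23 named classes, 11 of neurons and 10 of non-neuronal cells plus neuroblast-like and dividing cell-like nuclei, while 19327 nuclei, 25.5% of all, stayed unnamed. Levels are given as UMIs per 1000000 UMIs of a class (CPM), with an exact Poisson 95% interval. Ratios carry an exact binomial interval, and both intervals cover counting error only, not the spread between mice. In a nuclear library RNA from other cells can be read in every nucleus, and here it was not low. Slc17a7, a vesicular glutamate transporter of excitatory neurons, was at 171 CPM in upper-layer excitatory-like nuclei and still at 95.6 CPM in microglia-like nuclei, which do not make it. Values of the 7 genes in glia are therefore set beside those in microglia-like nuclei and beside neuronal marker lists.

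The genes lie on 3 mouse chromosomes (GENCODE M21, GRCm38). On chromosome 2, Scn3a (chr2:65457118-65567627, minus strand), Scn2a (chr2:65620771-65767447, plus strand) and Scn1a (chr2:66270778-66440840, minus strand) lie in this order, 53.1 kb and 503 kb apart. On chromosome 9, Scn2b (chr9:45117782-45130070) and Scn4b (chr9:45138395-45154152) are 8.32 kb apart on the plus strand, and Scn3b (chr9:40269217-40291618) is on the same chromosome. Scn8a (chr15:100869858-101045938) is on chromosome 15. The alpha genes span 111 to 176 kb and the beta genes 12.3 to 22.4 kb, most of it intron. On the opposite strand, Gm13630 overlaps Scn1a, Gm13595 overlaps Scn3a and Gm10684 covers all of Scn2b. No source used here states whether strand was used in counting, so reads of these pairs may not have been told apart.

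RefSeq promoter windows (GRCm38.p6, 250 bases before a transcript start) were at hand for 5 of the 7 genes, and they are shown because the windows differ in CG dinucleotides, which a script counted. Of 32851 promoters the median window held 6 CG dinucleotides and 52.4% G or C. One Scn8a window held 30, a number that 5.94% of all windows reached, and the Scn4b window held 23, which 13.3% reached. The Scn1a window held 4, the upstream Scn2a window 2 and the Scn2b window 1. Of the 250 bases, 229 of the Scn4b window and 94 of the Scn2b window lie in exons of their gene in GENCODE. The parts outside exons held 3 CG dinucleotides for Scn4b and 0 for Scn2b. A second, downstream window of Scn2a and of Scn8a held 9 each, with 53.2% G or C, so the difference between these genes depends on the start site chosen. Of the motifs searched on both strands, the GC box GGGCGG, found in 32.7% of all windows, was in none of the 7 windows of these genes, and the TATA motif TATAAA, found in 12.4%, was in the downstream window of Scn2a alone. CCAAT (33.8% of all windows) was in the Scn1a and Scn4b windows, and neither the E-box CACGTG (6.02%) nor TTCAGCACC (0.301%), a part of the RE1 element that neuronal genes often carry, was in any of the 7. The 21 bases of the Scn4b window outside exons do not hold its CCAAT. No motif of the list contains another. The stretches below lie outside the exons of their gene in GENCODE, run 5′ to 3′ on the strand of the gene and have each CG in capitals. They are chr2:66440841-66441087 (minus strand) for Scn1a, chr2:65620519-65620768 for Scn2a, chr15:100870395-100870644 for Scn8a and chr9:45117626-45117781 for Scn2b.
Scn1a: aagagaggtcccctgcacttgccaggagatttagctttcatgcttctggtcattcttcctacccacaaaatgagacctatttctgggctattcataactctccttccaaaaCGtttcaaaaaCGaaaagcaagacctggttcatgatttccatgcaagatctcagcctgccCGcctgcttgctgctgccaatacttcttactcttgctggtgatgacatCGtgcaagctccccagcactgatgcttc
Scn2a: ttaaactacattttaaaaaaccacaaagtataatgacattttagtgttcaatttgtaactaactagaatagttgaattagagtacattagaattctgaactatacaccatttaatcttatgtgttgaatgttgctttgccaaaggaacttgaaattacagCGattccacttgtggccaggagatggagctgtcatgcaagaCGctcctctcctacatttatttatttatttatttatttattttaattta
Scn8a: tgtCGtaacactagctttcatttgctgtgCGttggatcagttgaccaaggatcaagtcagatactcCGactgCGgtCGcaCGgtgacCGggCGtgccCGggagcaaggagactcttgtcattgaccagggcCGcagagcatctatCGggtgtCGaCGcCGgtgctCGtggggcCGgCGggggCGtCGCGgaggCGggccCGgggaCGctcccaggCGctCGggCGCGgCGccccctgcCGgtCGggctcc
Scn2b: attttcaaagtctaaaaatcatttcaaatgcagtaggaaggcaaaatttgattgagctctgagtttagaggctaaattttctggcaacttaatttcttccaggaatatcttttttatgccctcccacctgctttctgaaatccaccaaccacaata

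Among the 23 named classes, Scn1a, Scn2a and Scn8a were each highest in a neuronal class. Scn3a was highest in neuroblast-like nuclei and nearly as high in OPC-like as in any neuronal class. Unnamed nuclei are left out of these orders and of the sums compared below. With coarser clusters (resolution 0.5) they included a cluster of 5621 nuclei of no clear class, with Baiap3 and Rmst among its leading genes. Whether these were neurons was not tested. Compared with the 10 non-neuronal classes, the 11 neuronal classes held 1 member at least 2-fold higher and 0 at least 2-fold lower. Of all 19711 genes with at least 100 UMIs in these nuclei, 7.41% were at least 2-fold higher and 28.6% at least 2-fold lower. The median log2 ratio was 0.80 over the 7 members and -0.48 over all these genes.

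Scn1a was at 282 CPM in neurons and 126 CPM in non-neuronal nuclei, a log2 ratio of 1.16 (1.13 to 1.18) that was positive in 6 of 6 libraries, with values of 0.73 to 1.63. Scn2a followed at 0.96 (0.94 to 0.98), Scn8a at 0.81 (0.79 to 0.83), Scn3b at 0.80 (0.74 to 0.86) and Scn3a at 0.76 (0.73 to 0.80), each positive in 6 of 6 libraries. Scn4b was nearly level at 0.12 (0.02 to 0.21), with 1 neuronal class far above the rest and the other 10 at 8.02 CPM or less, below each non-neuronal class. Scn2b was lower in neurons, at 19.5 CPM against 26.3 CPM, a log2 ratio of -0.43 (-0.50 to -0.36), which lies close to the median of all genes and was positive in 1 of 6 libraries. Under TMM scaling, which takes a log2 ratio of -0.48 as no difference here, 5 members were past 2-fold, beside 14.3% of all genes higher and 17.6% lower under the same scaling, and the Scn2b ratio became 0.05. Without library 4, 2 members were past 2-fold, Scn2a being the second at 1.01, beside 7.87% of genes higher. Of 4 other subunit genes with enough UMIs, Scn9a, which encodes Nav1.7, was 2-fold higher in neurons, at 39.2 CPM against 16.9 CPM, and none was 2-fold lower. Partners of the channels that were 2-fold higher included the axon initial segment spectrin Sptbn4 (log2 ratio 1.49) and the intracellular channel partners Fgf14 (1.22) and Fgf12 (1.15). The adhesion molecule Nfasc was 2-fold lower over all libraries (-1.44), with library values from -1.97 over -1.29 to -0.49. This did not hold for each non-neuronal class. Nfasc was at 237 CPM in neurons, against 2284 CPM in immature and 2119 CPM in mature oligodendrocyte-like nuclei. It was lower than in neurons in OPC-like (195 CPM), astrocyte-like (134 CPM) and microglia-like nuclei (106 CPM).

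**Figure D1:**
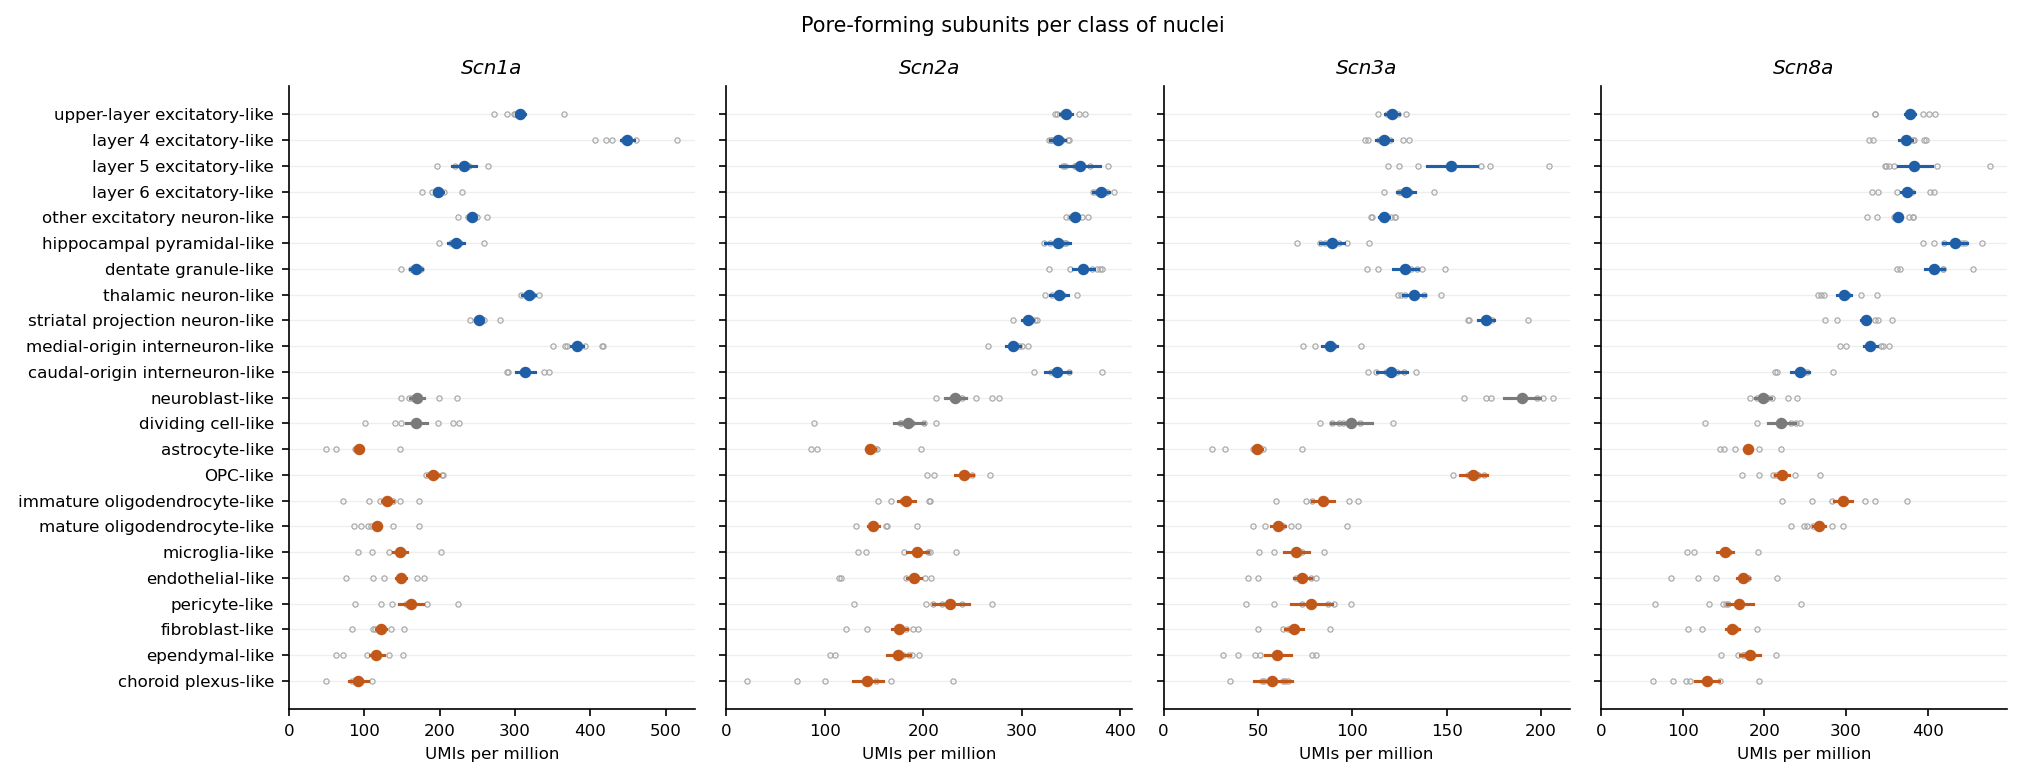
Level of the 4 pore-forming subunit genes (x axis, UMIs per 1000000 UMIs) in each of the 23 named classes of nuclei (y axis). Filled points are sums over all 6 libraries with their 95% Poisson interval, open circles are the 6 libraries, and colours mark neurons (blue), neuroblast-like and dividing cell-like nuclei (grey) and non-neuronal nuclei (orange); Scn1a is highest in layer 4 excitatory-like nuclei at 449 CPM, and OPC-like nuclei stand above the other glia for Scn3a at 164 CPM.

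Scn1a differed among the layers of the cortex. Its level was 449 CPM (440 to 457) in layer 4 excitatory-like nuclei, with a lowest library at 406, a median of 436 and a highest at 515 CPM, and this class ranked first in 6 of 6 libraries. Medial-origin interneuron-like nuclei came next at 382 CPM (374 to 390), with libraries from 350 over 381 to 417 CPM. Lhx6, a marker on its list, set this class apart, at 49.3 CPM against 5.16 CPM in microglia-like and 1.45 CPM in layer 4-like nuclei. Parvalbumin and somatostatin cells are known members of this lineage. Pvalb was at 18.6 and Sst at 30.6 CPM in the class, above layer 4-like nuclei (5.01 and 15.3 CPM). In microglia-like nuclei they were at 16.2 and 65.1 CPM, so Sst did not set the class apart and Pvalb hardly did. Thalamic neuron-like, caudal-origin interneuron-like and upper-layer excitatory-like nuclei followed at 318, 314 and 307 CPM, and the intervals of each neighbouring pair overlapped. Layer 6 excitatory-like nuclei had 199 CPM (193 to 204) and dentate granule-like nuclei 169 CPM (161 to 176), the lowest of the neurons. All 6 libraries of layer 4-like nuclei lay above all 6 libraries of layer 6-like and dentate granule-like nuclei.

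Within the cortex, Scn1a was 1.71 times as high in layer 4-like nuclei as in the other cortical layers together, a log2 ratio of 0.77 (0.74 to 0.81) that lay between 0.64 and 0.88 in the 6 libraries. This comparison was chosen after the levels had been seen. None of the members was past 2-fold in it in either direction, beside 1.82% of 14867 genes higher and 3.81% lower. With coarser clusters (resolution 0.5) the ratio was 0.25. Among 4 other subunit genes, the neighbours of Scn1a on chromosome 2, Scn9a (chr2:66480080-66634962) and Scn7a (chr2:66673425-66784914), were 2-fold higher in layer 4-like nuclei, with log2 ratios of 2.097 and 2.97, and they are named after their values were seen. Medial-origin interneuron-like nuclei exceeded the cortical excitatory-like nuclei by 0.29 (0.25 to 0.32) for Scn1a, again in 6 of 6 libraries.

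Scn2a varied least among neurons. Its 11 neuronal classes ranged from 291 CPM (284 to 298) in medial-origin interneuron-like nuclei to 380.5 CPM (372 to 389) in layer 6 excitatory-like nuclei. The layer 6-like class ranked first in 5 of 6 libraries. Its libraries ran from 372 over 382 to 393 CPM and those of the medial-origin class from 266 over 295 to 306 CPM, without overlap. Between them, 8 classes from dentate granule-like (362 CPM) to caudal-origin interneuron-like nuclei (336 CPM) formed a series in which each interval met the next. Outside neurons the highest level was in OPC-like nuclei, at 241 CPM (233 to 250).

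Scn8a, summed over libraries, was highest in the 2 hippocampal classes. Hippocampal pyramidal-like nuclei held 433 CPM (419 to 448) and dentate granule-like nuclei 408 CPM (397 to 420), with libraries from 394 over 431 to 466 CPM and from 362 over 414 to 455 CPM. The pyramidal-like class ranked first in 4 of 6 libraries, the dentate granule-like class in library 3 and layer 5 excitatory-like nuclei in library 4, at 476 CPM. The hippocampal pyramidal-like class was named by its list, although none of its 10 leading genes was a marker on it. The 4 cortical layer classes lay together between 373 and 384 CPM with overlapping intervals. Caudal-origin interneuron-like nuclei were the lowest neurons at 244 CPM (233 to 255), below medial-origin interneuron-like nuclei by -0.44 on the log2 scale (-0.51 to -0.36), with the same sign in 6 of 6 libraries.

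Scn3a had a different order from the other 3 alpha genes. Neuroblast-like nuclei had the highest level at 190 CPM (181 to 199), with libraries from 159 over 186 to 206 CPM. The class was named from a list of genes of migrating immature inhibitory neurons, of which only Dlx6os1 was among its leading genes. It ranked first in 5 of 6 libraries, and in library 1 layer 5 excitatory-like nuclei did, at 204 CPM. Striatal projection neuron-like nuclei followed at 171 CPM (167 to 175) and OPC-like nuclei at 164 CPM (157 to 171), a pair whose intervals overlapped. The lowest neurons were medial-origin interneuron-like nuclei at 87.9 CPM (84.1 to 91.9) and hippocampal pyramidal-like nuclei at 89.0 CPM (82.7 to 95.8), which overlapped with each other. All 6 libraries of the neuroblast-like class lay above all 6 of either class.

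The make-up of the alpha UMIs brings these orders together. The share of each gene among the UMIs of the 4 alpha genes was followed from class to class, and the 4 genes were not ranked against each other within a class, because capture differs with gene length and sequence. The Scn1a share ran from 15.8% in dentate granule-like nuclei to 35.2% in layer 4-like nuclei (exact binomial interval 34.6 to 35.7), and medial-origin interneuron-like nuclei had 35.0%. The Scn2a share moved little, between 25.2% and 35.7%. The Scn3a share ran from 8.06% (7.72 to 8.41) in medial-origin interneuron-like nuclei to 24.02% (23.0 to 25.1) in neuroblast-like nuclei, and OPC-like nuclei came second with 20.1% (19.3 to 20.9). The Scn8a share ran from 24.02% in caudal-origin interneuron-like nuclei to 44.9% (43.9 to 45.8) in mature oligodendrocyte-like nuclei.

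**Figure D2:**
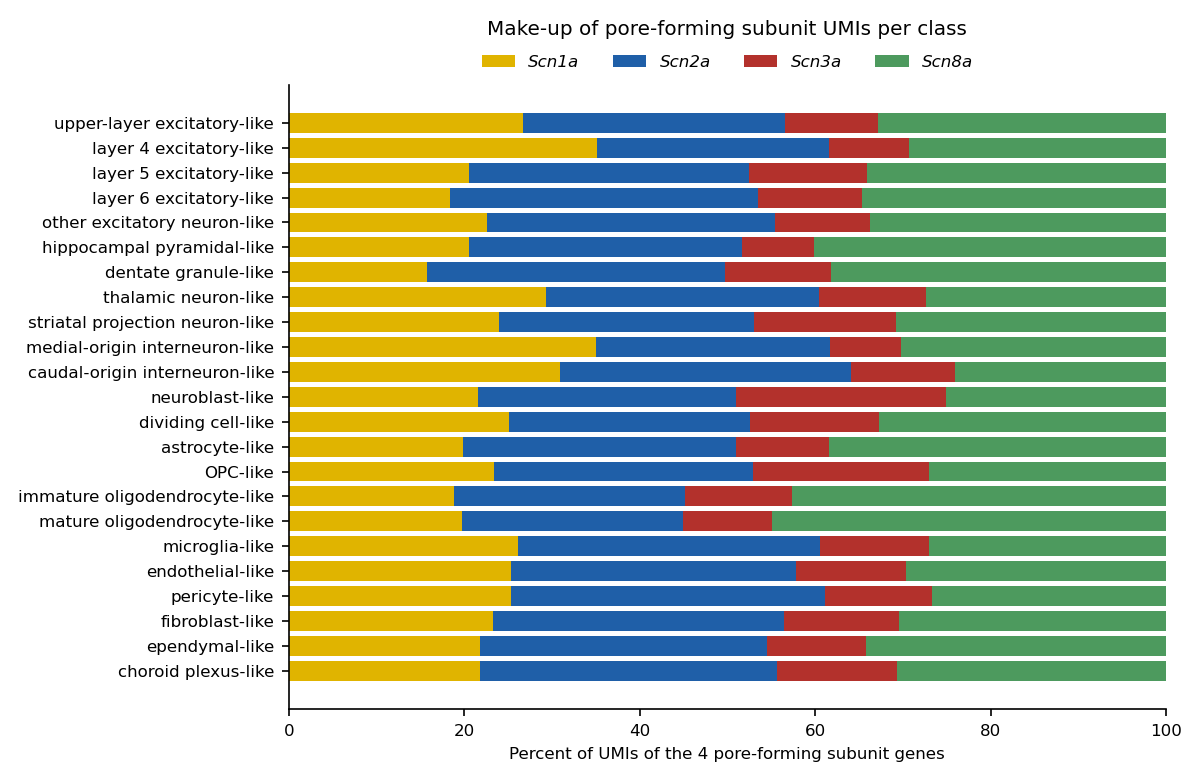
Share of Scn1a, Scn2a, Scn3a and Scn8a among the UMIs of these 4 genes (x axis, percent, stacked bars) in each named class (y axis), summed over the 6 libraries. The Scn3a segment is widest in neuroblast-like and OPC-like nuclei, at 24.02% and 20.1%, and the Scn8a segment in mature oligodendrocyte-like nuclei, at 44.9%.

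OPC-like nuclei stood out among glia through Scn3a. Against astrocyte-like, immature and mature oligodendrocyte-like and microglia-like nuclei together, 1 member was at least 2-fold higher and 0 were lower, beside 3.67% of 16097 genes higher and 11.3% lower. The member was Scn3a, at 164 CPM in OPC-like and 59.9 CPM in the other glia-like nuclei, a log2 ratio of 1.45 (1.37 to 1.53). Its OPC-like libraries ran from 153 over 166 to 170 CPM, and each of the 6 lay above all 6 libraries of astrocyte-like, mature oligodendrocyte-like, immature oligodendrocyte-like and microglia-like nuclei, whose highest was 103 CPM. Scn1a was higher by 0.79 (0.72 to 0.85) and Scn2a by 0.62 (0.56 to 0.68) in 6 of 6 libraries, while Scn8a was level, at 0.02 (-0.04 to 0.08). Among the beta genes, Scn3b was higher by 0.46 (0.30 to 0.62), and the intervals of Scn2b and Scn4b included 0. Against microglia-like nuclei alone, compared further below, the Scn3b ratio was 0.05 (-0.19 to 0.30), positive in 3 of 6 libraries. There, too, the intervals of Scn2b and Scn4b included 0.

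Neuronal markers were read in each of the glia-like classes, and in OPC-like nuclei their summed levels lay between those of the others, though not that of Gad1. The summed level of 8 broad excitatory markers was 694 CPM in OPC-like nuclei (libraries 304 to 820), 802 CPM in astrocyte-like (554 to 937), 967 CPM in microglia-like (602 to 1112), 688 CPM in immature (523 to 752) and 583 CPM in mature oligodendrocyte-like nuclei (467 to 626). That of 5 broad inhibitory markers was 325, 445, 255, 260.4 and 195 CPM in the same order. One of them, Gad1, was at 82.2 CPM in OPC-like nuclei and at 33.2 to 56.6 CPM in these other classes, and its part in the values of the members was not tested. Defining OPC genes were present, with the growth factor receptor Pdgfra at 529 CPM against 12.9 CPM in astrocyte-like nuclei. Against microglia-like nuclei alone, a comparison chosen after the levels had been seen, 1 member, Scn3a, was past 2-fold higher at 1.23 (1.08 to 1.38), in 6 of 6 libraries, beside 8.24% of 12541 genes higher and 11.5% lower. The same ratio was 0.38 (0.27 to 0.49) for Scn1a, 0.32 (0.22 to 0.41) for Scn2a and 0.54 (0.44 to 0.65) for Scn8a. These 3 values fell to between -0.04 and 0.01 once the nuclei of the highest doublet scores were left out, where Scn3a was still at 0.80. The Scn3a ratio was also inside 2-fold with coarser clusters, at 0.60, its lowest value of all the alternatives. Among 20 partners of the channels, the sodium leak channel Nalcn was 2-fold higher in OPC-like than in the other glia-like nuclei (log2 ratio 1.13), and Nfasc (-2.35) and the ubiquitin ligase Nedd4l (-1.05) were 2-fold lower. For Nfasc this did not hold for each class. Its 195 CPM in OPC-like nuclei was below immature (2284 CPM) and mature oligodendrocyte-like nuclei (2119 CPM). It was above astrocyte-like (134 CPM) and microglia-like nuclei (106 CPM). None of 4 other subunit genes passed 2-fold.

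Shares of nuclei with a UMI gave the same order. After each nucleus had been thinned to 2000 UMIs, which left out 426 of 3429 OPC-like nuclei and 966 of 2619 microglia-like nuclei, 26.9% of OPC-like nuclei held a UMI of Scn3a (25.4 to 28.6). The share was 12.5% (10.9 to 14.1) in microglia-like, 9.07% in astrocyte-like and 9.45% in mature oligodendrocyte-like nuclei. Unthinned, at a median of 3187 and 2277 UMIs, 39.95% of OPC-like and 14.8% of microglia-like nuclei held one. The thinned OPC share lay next to that of striatal projection neuron-like nuclei (28.0%) and neuroblast-like nuclei (28.1%), with overlapping intervals.

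**Figure D3:**
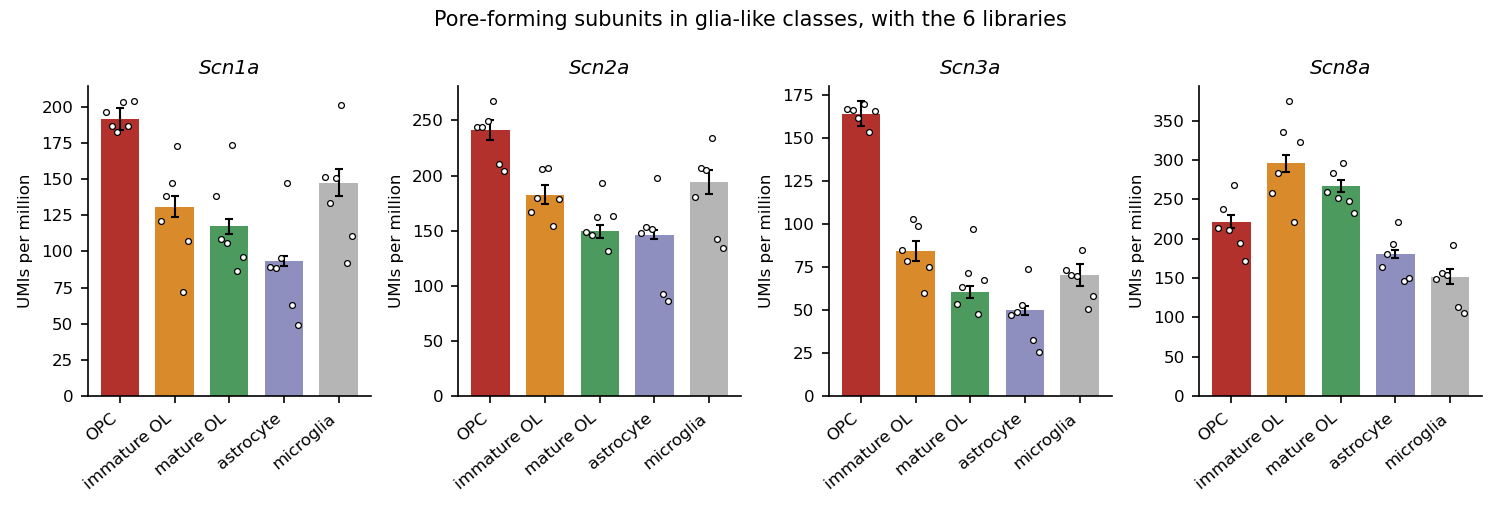
Level of the 4 pore-forming subunit genes (y axis, UMIs per 1000000 UMIs) in 5 classes of glia-like nuclei (OL, oligodendrocyte). Bars are sums over all libraries with their 95% Poisson interval and open circles are the 6 libraries; the 6 OPC circles lie above all others for Scn3a, and Scn8a is highest in immature and mature oligodendrocyte-like nuclei.

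Along the oligodendrocyte lineage the alpha genes parted. The level of Scn3a, 164 CPM in OPC-like nuclei, was 84.4 CPM in the immature oligodendrocyte-like class and 60.4 CPM (56.8 to 64.1) in the mature class, where it met the interval of microglia-like nuclei (63.9 to 76.8). Scn2a went from 241 over 183 to 149 CPM and Scn1a from 191 over 131 to 117 CPM. Scn8a took the other direction, at 221 CPM (213 to 230) in OPC-like, 296 CPM (285 to 307) in immature and 267 CPM (259 to 274) in mature oligodendrocyte-like nuclei. Microglia-like nuclei held 194 CPM of Scn2a and 147 CPM of Scn1a, above the immature and mature values of both genes. Their Scn8a level, 152 CPM, was below each value of the lineage. The step from OPC-like to immature oligodendrocyte-like nuclei was -0.96 on the log2 scale for Scn3a (-1.08 to -0.84) and 0.42 for Scn8a (0.34 to 0.49), each with the same sign in 6 of 6 libraries. In this comparison, chosen after the levels had been seen, 0 members were past 2-fold in either direction, beside 4.05% of 12421 genes higher and 4.23% lower in immature oligodendrocyte-like nuclei.

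Between OPC-like and mature oligodendrocyte-like nuclei, 1 member, Scn3a, was at least 2-fold higher in OPC-like nuclei and 0 were lower, beside 8.49% of 13255 genes higher and 8.21% lower. Its log2 ratio was 1.44 (1.33 to 1.55), with libraries from 0.80 over 1.35 to 1.69. The mature class was uneven over libraries, with 741, 838, 159, 163, 483 and 101 nuclei in libraries 1 to 6, where OPC-like nuclei numbered 626, 751, 661, 483, 565 and 343, so its summed values rest mainly on libraries 1, 2 and 5. The study reported smaller shares of immature and mature oligodendrocytes in Npc1-/- than in WT forebrain. Whether the uneven numbers here follow genotype was not tested, because no key ties a library to a mouse. With each library left out in turn the Scn3a ratio lay between 1.37 and 1.497. Scn8a was lower in OPC-like nuclei by 0.27 on this scale, with a ratio of -0.27 (-0.34 to -0.20), negative in 6 of 6 libraries, and this value was -0.04 with coarser clusters (resolution 0.5). Without the nuclei of the highest doublet scores, 4 members were past 2-fold higher in OPC-like nuclei, namely Scn1a (1.35), Scn2a (1.23), Scn3a (2.08) and Scn3b (1.10), while the share of all genes past 2-fold higher was also greater, at 14.6%. Of 20 partners, the fibroblast growth factor homologue Fgf11 was 2-fold higher in OPC-like nuclei (1.37), and 3 were 2-fold lower, namely Nfasc (-3.44), the contactin Cntn2 (-1.78) and ankyrin G, Ank3 (-1.67), which in the adult assemble the node of Ranvier and its neighbouring axon domains.

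Scn8a in oligodendrocytes was also above that of glia outside the lineage. Immature oligodendrocyte-like nuclei exceeded astrocyte-like nuclei (180 CPM) by 0.71 (0.65 to 0.78) and mature ones by 0.56 (0.51 to 0.62), in 6 of 6 libraries each. Both comparisons were chosen after the levels had been seen. Each held 0 members past 2-fold, beside 6.45% of 14347 genes higher and 13.1% lower in immature, and 7.73% of 14803 genes higher and 15.3% lower in mature oligodendrocyte-like nuclei. The 6 libraries of mature oligodendrocyte-like nuclei ran from 232 over 256 to 297 CPM, above those of astrocyte-like nuclei, from 146 over 172 to 221 CPM. The broad excitatory list was lower in mature oligodendrocyte-like nuclei (583 CPM) than in astrocyte-like nuclei (802 CPM), and so was the inhibitory list (195 and 445 CPM). In thinned nuclei a Scn8a UMI was found in 38.3% of mature oligodendrocyte-like (36.4 to 40.3), 29.1% of astrocyte-like (28.1 to 30.2) and 25.7% of microglia-like nuclei (23.6 to 27.8).

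**Figure D4:**
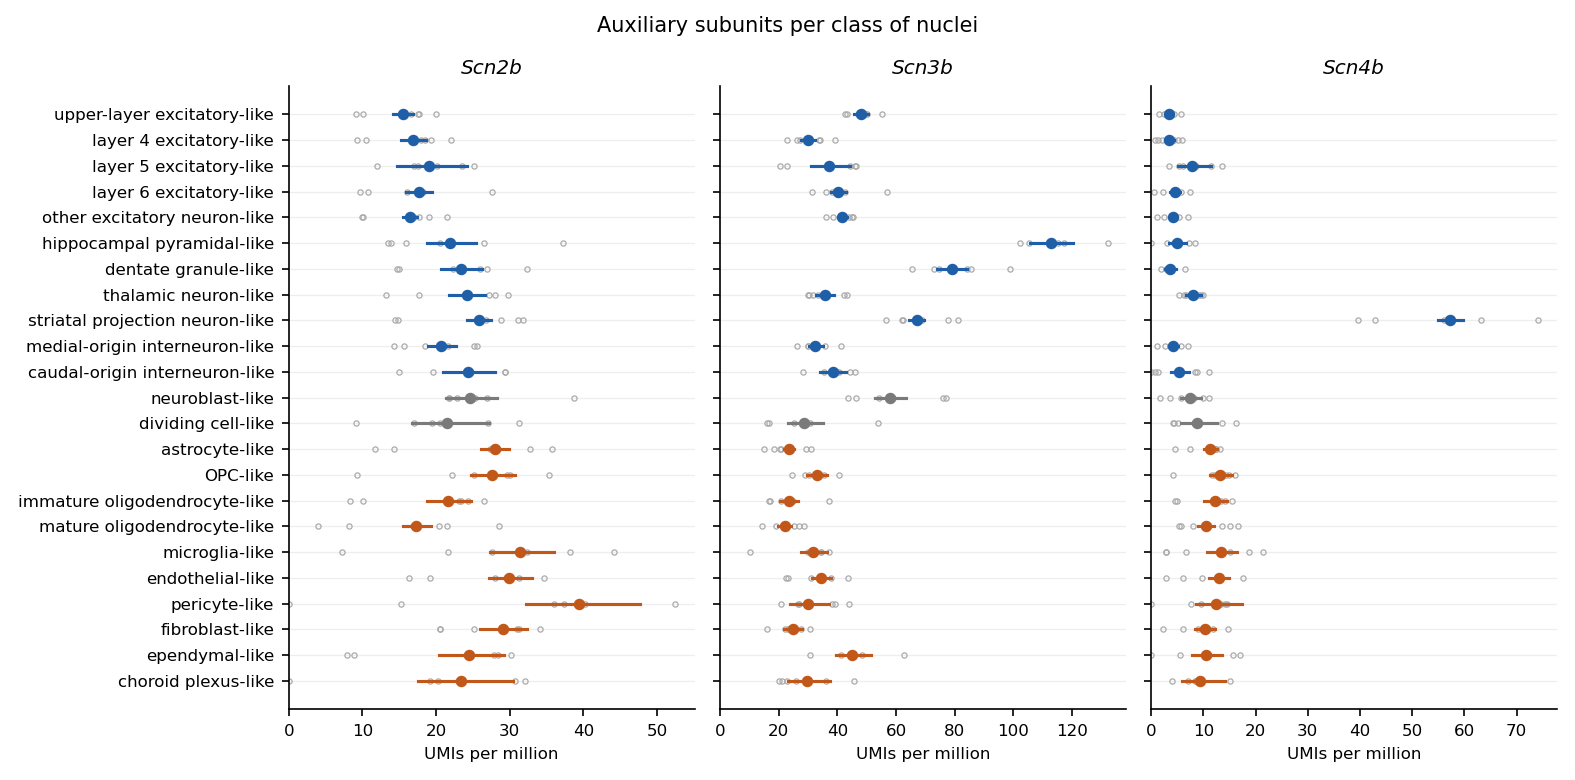
Level of the auxiliary subunit genes Scn2b, Scn3b and Scn4b (x axis, UMIs per 1000000 UMIs) in each named class of nuclei (y axis), drawn as for the pore-forming subunits, with sums and 95% Poisson intervals as filled points and the 6 libraries as open circles. Scn4b is highest in striatal projection neuron-like nuclei (57.3 CPM), Scn3b in hippocampal pyramidal-like nuclei (113 CPM), and Scn2b is spread over classes.

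Scn4b, whose protein is known for shaping the resurgent sodium current, had the widest range over the 23 named classes of the 7 genes, 16.5-fold. Striatal projection neuron-like nuclei held 57.3 CPM (55.0 to 59.7), with libraries from 39.6 over 56.6 to 74.0 CPM, and the 4 cortical layer classes together, called cortical excitatory-like nuclei here, 3.94 CPM. The lowest striatal library lay above the highest library of any other named class, which was 21.5 CPM. The log2 ratio was 3.86 (3.69 to 4.03), a 14.5-fold difference, with libraries from 3.14 to 4.62. It was the 1 member past 2-fold higher in this comparison, with 0 past 2-fold lower, beside 6.85% of 16061 genes higher and 7.78% lower. After thinning, 10.6% of striatal projection neuron-like nuclei held a Scn4b UMI (9.76 to 11.4) against 0.65% of upper-layer excitatory-like (0.42 to 0.97) and 3.15% of microglia-like nuclei (2.36 to 4.11). Outside the striatum its levels ran from 3.47 to 13.4 CPM, and the upper end was formed by glia-like and vascular classes.

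Other subunits moved less in striatal projection neuron-like nuclei. Scn3b was higher than in cortical excitatory-like nuclei by 0.72 (0.65 to 0.80), Scn2b by 0.64 (0.52 to 0.76) and Scn3a by 0.47 (0.43 to 0.52), while Scn1a (-0.31), Scn2a (-0.21) and Scn8a (-0.21) were lower, each with the same sign in 6 of 6 libraries. Among other subunit genes, Scn7a, which encodes the atypical channel Nax, was 2-fold lower (0.78 and 2.53 CPM). Of 20 partners, Fgf11 alone passed 2-fold, at 1.61. The cluster behind this class had Drd2 among its leading genes, and its levels were 174.5 CPM of Drd2 and 40.9 CPM of Drd1, the D2 and D1 dopamine receptors, which mark the indirect and the direct pathway, in that order. These 2 values are not ranked against each other.

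Scn3b was highest in hippocampal, striatal and neuroblast-like classes. Hippocampal pyramidal-like nuclei had 113 CPM (105 to 120), with libraries from 102 over 115 to 132 CPM, and this class ranked first in 6 of 6 libraries. Dentate granule-like nuclei had 78.9 CPM (73.9 to 84.2) and the striatal projection neuron-like class 67.0 CPM (64.5 to 69.6), followed by neuroblast-like nuclei at 58.0 CPM (52.9 to 63.5). Layer 4-like nuclei had 29.9 CPM (27.7 to 32.2), the lowest of the neurons and close to microglia-like nuclei (31.7 CPM). Against cortical excitatory-like nuclei, Scn3b was the 1 member past 2-fold in hippocampal pyramidal-like nuclei, at 1.47 (1.37 to 1.58) with libraries from 1.25 to 1.75, beside 4.05% of 15158 genes higher and 6.93% lower. This comparison, too, was chosen after the levels had been seen. In dentate granule-like nuclei, compared in the same way, 0 members were past 2-fold, beside 6.23% of 15308 genes higher and 5.53% lower, and Scn3b came closest at 0.96 (0.85 to 1.07), followed by Scn1a at -0.89 (-0.96 to -0.82). In layer 4-like nuclei Scn3b was below the other cortical layers by -0.57 on the log2 scale (-0.70 to -0.45), where Scn1a was above them.

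Scn2b, which encodes a beta subunit linked to the alpha subunit by a disulfide bond, did not mark neurons. Summed over libraries, its level ran from 15.5 CPM (14.2 to 16.8) in upper-layer excitatory-like nuclei to 39.4 CPM (32.2 to 47.6) in pericyte-like nuclei, and neighbouring intervals overlapped all along the order of 23 classes. The order did not hold across libraries. The pericyte-like class was first in 3 of 6 libraries and last in library 5, where its 42 nuclei held 0 UMIs of Scn2b, and the upper-layer class was last in 1 of 6. The shallow unnamed clusters were higher still. A cluster of 6440 nuclei led by Gm42418, with a median of 1825 UMIs, had 49.4 CPM, and a cluster of 1506 nuclei led by Mbp and mitochondrial transcripts had 80.2 CPM. Scn4b was at 33.8 CPM in the second of these, above every named class but the striatal one. In nuclei thinned to 2000 UMIs, 3.13% of upper-layer excitatory-like (2.59 to 3.74) and 6.96% of microglia-like nuclei (5.78 to 8.29) held a Scn2b UMI.

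Scn2b and Scn4b also differed most between libraries. Over all nuclei Scn2b was at 23.9, 27.8, 26.5, 24.8, 14.8 and 13.4 CPM in libraries 1 to 6 and Scn4b at 12.3, 15.0, 13.3, 13.5, 7.50 and 6.74 CPM, so that the highest library was 2.07 and 2.22 times the lowest. The 4 alpha genes differed by 1.11 to 1.19 times between libraries and Scn3b by 1.27 times. In the same 6 libraries the median mitochondrial share of a nucleus was 0.106%, 0.186%, 0.142%, 0.0718%, 0.0380% and 0.0203%. Its part in the values of Scn2b and Scn4b was not tested, and which mice gave libraries 5 and 6 is not known here.

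Interneurons, neuroblasts and thalamic neurons were compared in the same way. The medial-origin, striatal, hippocampal, dentate and thalamic comparisons share the cortical excitatory-like nuclei as their second class and are not independent of each other. In medial-origin interneuron-like against cortical excitatory-like nuclei 0 members were past 2-fold in either direction, beside 7.26% of 15681 genes higher and 5.17% lower. Scn3a was lower by -0.48 (-0.56 to -0.42), Scn3b by -0.32 (-0.43 to -0.20), Scn2a by -0.28 (-0.32 to -0.24) and Scn8a by -0.19 (-0.23 to -0.15) on the log2 scale, and Scn1a was higher by 0.29. Of 4 other subunit genes 1 was 2-fold higher, and of 20 partners 2. Caudal-origin interneuron-like nuclei had more Scn3a than medial-origin ones, by 0.46 (0.34 to 0.57), and more Scn2a, by 0.21 (0.14 to 0.27), and less Scn1a, at -0.28 (-0.35 to -0.22), in 6 of 6 libraries each. There, too, 0 of the 7 were past 2-fold, beside 3.12% of 12657 genes higher and 3.37% lower, in a comparison chosen after the levels had been seen.

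In neuroblast-like against interneuron-like nuclei, 0 members were past 2-fold higher and 1, Scn1a, was past 2-fold lower, beside 8.08% of 13503 genes higher and 5.72% lower. Scn1a was at 170 CPM in neuroblast-like and 365 CPM in interneuron-like nuclei, a log2 ratio of -1.10 (-1.18 to -1.02) with libraries from -1.31 to -0.60. Scn3a was at 190 and 96.2 CPM, a log2 ratio of 0.98 (0.89 to 1.07) just inside the 2-fold limit, positive in 6 of 6 libraries. It was past the limit without library 1 (1.03) and without library 4 (1.04), when 1 and 2 members were past 2-fold higher. The shares of all genes without these libraries are not given here. Scn8a was lower, at -0.64 (-0.72 to -0.56), and Scn3b higher, at 0.77 (0.61 to 0.93). Among other subunit genes, Scn9a was 2-fold lower (-2.11). Of 20 partners, Cntn2 was 2-fold lower (-1.12). Of the 1786 neuroblast-like nuclei 806 came from library 3, without which the ratio was -1.06 for Scn1a and 0.91 for Scn3a. The neuroblast-like class rests on a cluster with 1 marker of its list, Dlx6os1, among its 10 leading genes, and 8 striatal projection neuron markers summed to 4663 CPM in it against 1673 CPM in medial-origin interneuron-like nuclei. The part of these in Scn3a and Scn3b was not tested.

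Thalamic neuron-like nuclei held 1 member past 2-fold higher than in cortical excitatory-like nuclei and 0 past 2-fold lower, beside 8.61% of 15489 genes higher and 7.10% lower. It was Scn4b at a low level, 8.02 CPM (6.69 to 9.55) against 3.94 CPM, a log2 ratio of 1.03 (0.72 to 1.32) whose interval holds the limit and whose level is below the 13.4 CPM of microglia-like nuclei. Without library 1, 5 or 6 it was inside the limit, at 0.93, 0.98 and 0.96, and the count was 0. Scn8a was lower, at -0.34 (-0.38 to -0.29), with the same sign in 6 of 6 libraries. Among other subunit genes Scn9a was 2-fold higher (103 and 22.8 CPM), and of 20 partners Fgf13, which binds the channel tail, was 2-fold higher (747 and 144 CPM).

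**Figure D5:**
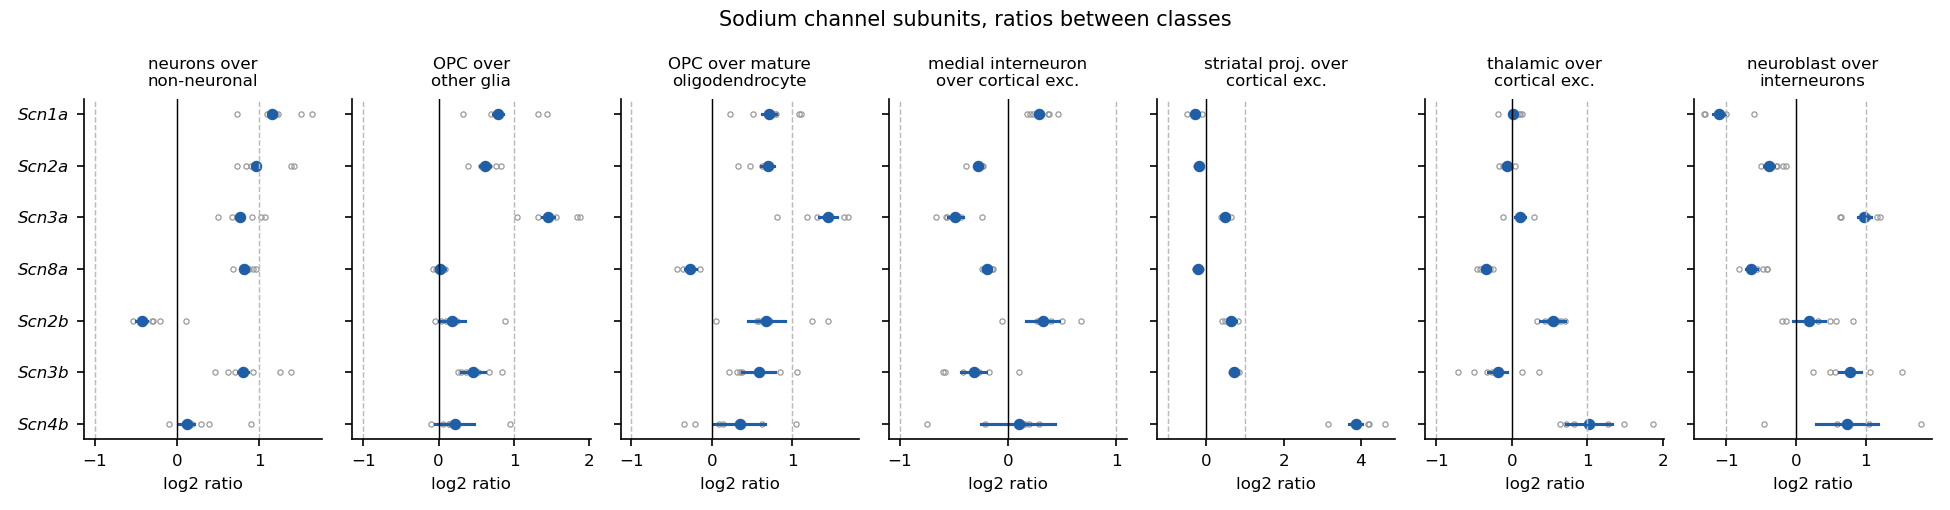
Log2 ratios (x axis) of the 7 subunit genes (y axis) in 7 comparisons of classes, with the first class named over the second above each panel. Filled points and bars are sums over all libraries with their 95% binomial interval, open circles the 6 libraries, solid lines 0 and dashed lines 2-fold; Scn4b reaches 3.86 in striatal projection neuron-like over cortical excitatory-like nuclei and Scn3a 1.45 in OPC-like over other glia-like nuclei.

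The genes most alike to each member were sought by Pearson correlation of log2(CPM + 1) over the 23 named classes among 12995 genes with at least 2000 UMIs. The classes share libraries and depth, and the values are a description. Scn4b was nearest to Rgs9 (0.93), Rasd2 (0.90) and Penk (0.90), which are known from striatal neurons. Scn2a was nearest to Ptprn (0.96), Clvs2 (0.95) and Ppfia3 (0.95), and Scn8a to Gm27153 (0.91), Otud7a (0.91) and Lmtk3 (0.91). Scn1a was nearest to Gabrb2 (0.92), then to Gm13630 (0.90), which overlaps it, and Cyp4x1 (0.90). Scn3a was nearest to Pdzd4 (0.87), Macrod2 (0.86) and Unc79 (0.86), Scn3b to Camkv (0.86), Klhl3 (0.85) and Plppr4 (0.84), and Scn2b to Vdac1 (0.90), Nat8l (0.89) and Diras1 (0.89).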

How the data were processed

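Nuclei of flash-frozen forebrain from 3 WT and 3 Npc1-/- mice were sequenced on the 10x Genomics platform. The deposited matrix holds raw UMI counts per gene and barcode, written per its header by Cell Ranger 6.0.0, whereas the labels name Cell Ranger 2.1.1 with mm10 and the study's methods STARsolo with GRCm38. No source used here states whether intronic reads were counted, the strand setting, or how the matrix relates to the authors' filtered data. The members, lists and comparisons were chosen with earlier results of these data known.

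Nuclei with a mitochondrial share of 10% or more (11) were left out. Counts were scaled to 10000, and 3000 variable genes without sodium channel genes, 30 principal components and 20 neighbours gave 37 Leiden clusters at resolution 1.0 (scanpy 1.11.5, leidenalg 0.10.2, scipy 1.17.1, Python 3.11.15). Clusters were named from 29 marker lists by rules set after the clusters had been seen. A cluster stayed unnamed if mitochondrial, ribosomal, haemoglobin or Gm42418 transcripts led it, if 40% or more of its nuclei were in the top 10% of doublet scores, if fewer than 3 markers were detected, if another class's markers led it or 75% of them were enriched, or if scores were within 0.5 of each other without a leading marker. This left 10 clusters unnamed. Doublets were scored and, as an alternative, removed. Summed UMIs per class gave CPM, with exact Poisson, Clopper-Pearson and binomial 95% intervals. Ratios were computed for all genes, and genes with at least 100 UMIs in both classes together were the background for the 2-fold limit. The ratio function was tested on simulated counts. Named were the 7 members, and, by a fixed rule, other subunits and partners past 2-fold, at most 4 per comparison and direction, where members were. Alternatives were a stricter filter (2000 UMIs, mitochondrial share under 1%), resolutions 0.5 and 2.0, doublet removal, sodium channel genes in clustering, TMM scaling, means over nuclei, medians over libraries, each library left out, other limits and gene minima, and, added after seeing the data, removal of shared barcodes. Some genes of the lists of other subunits and partners are not reported here.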

Additional observations from a re-analysis of the deposited data

How the results depend on the processing

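No paired analysis was possible because no source ties a library to a mouse, as far as the replicate numbers of WT and Npc1-/- mice go. Comparing classes within a library needs no such key. The classes share libraries, and their ratios within each library stand beside the results. Of 1561 log2 ratios of members recomputed under the alternatives, 1356 moved by less than the spread between libraries, 198 moved by more and 7 changed sign. Without the highest doublet scores, the ratio of mature oligodendrocyte-like to astrocyte-like nuclei became -0.26 for Scn1a and -0.30 for Scn3a, and that of OPC-like to microglia-like nuclei became -1.2e-05 for Scn1a and -0.044 for Scn8a. Under TMM scaling, Scn2b became 0.053 in neurons over non-neuronal nuclei, Scn3a -0.034 in thalamic neuron-like and Scn8a -0.070 in dentate granule-like over cortical excitatory-like nuclei. TMM took as no difference a log2 ratio of 0.13 in the medial-origin, 0.11 in the striatal, 0.25 in the neuroblast, 0.14 in the thalamic and 0.19 in the dentate comparison, 0.18 in OPC-like over mature oligodendrocyte-like, -0.16 in mature oligodendrocyte-like over astrocyte-like and -0.26 in OPC-like over microglia-like nuclei. The causes were not tested.

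Of 238 counts of members past the limit, 212 stayed within 1.5 times the reported count. The number higher in neurons was 2 without the highest doublet scores, beside 8.63% of all genes, and 5 under TMM scaling, beside 14.3%, and from 1 to 2 when a library was left out. The number higher in neuroblast-like nuclei, reported as 0, was 1 under the stricter filter, at resolution 2.0, with sodium channel genes allowed in clustering and by the median over libraries (for the first 3, beside 6.45% to 7.79% of all genes), and from 0 to 2 when a library was left out. The number higher in thalamic neuron-like nuclei was 0 at resolution 2.0 and under TMM scaling, and from 0 to 1 when a library was left out. For neuroblast-like and thalamic neuron-like nuclei, shares of all genes with a library left out are not given here. The number higher in OPC-like than in mature oligodendrocyte-like nuclei was 4 without the highest doublet scores, beside 14.6% of all genes. At a limit of 1.5-fold the number higher was 5 in neurons (beside 13.2% of all genes), 3 in OPC-like over other glia-like nuclei (7.85%), 4 in OPC-like over mature oligodendrocyte-like nuclei (22.6%), 3 in striatal projection neuron-like (14.2%) and 3 in neuroblast-like nuclei (23.8%), where 2 were lower (11.7%). At 3-fold it was 0 in neurons, in both OPC comparisons and in thalamic neuron-like nuclei, and 0 were lower in neuroblast-like nuclei. The share of all genes past 3-fold is not given here, so these counts are not read as a result about the members. At resolution 0.5 no caudal-origin interneuron-like or dentate granule-like class formed, which left their comparisons without a value. Depth limits Scn4b and Scn2b most, with 6002 and 11487 UMIs over all nuclei.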
